A study of Mus musculus with 6 samples.

Results

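The protein components of the cytosolic ribosome were followed in the gastrocnemius muscle of young and aged mice. A gene was taken as a ribosomal protein gene when its symbol was Rpl or Rps followed by a number and an optional suffix, or Rplp0, Rplp1 or Rplp2, and pseudogenes were left out. RefSeq held 83 such protein-coding genes, of which 82 had a probe on the array and 80 were tested among 20900 genes in all, 49 of the large and 31 of the small subunit. Rpl37 had no probe, and Rpl10l and Rpl39l, paralogs known from the testis, were well above background on 0 of 6 arrays. Total RNA of 3 young (13 weeks of age) and 3 aged (26 months of age) male C57BL/6J mice was labelled with Cy3 and hybridized to single-colour Agilent arrays, 1 per mouse. The labels name no transgene and no treatment for either group. Values are log2 signals on which 0 is the 75th percentile of the array, and a difference of 1 is a doubling.

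The ribosome joins a small subunit, which reads the mRNA, to a large subunit, which makes the peptide bond, and each subunit is ribosomal RNA folded around many proteins, nearly all present once, with the acidic P proteins of the stalk as the exception. Cells make the proteins in matched amounts, and their mRNAs share a pyrimidine tract at the 5′ end (the TOP motif) through which mTORC1 controls their translation. In skeletal muscle, ribosome number sets much of the capacity for protein synthesis. Striated muscle is also known for a ribosomal protein of its own, Rpl3l, which takes the place of the ubiquitous Rpl3 near the peptidyl transferase centre and is high in resting adult fibres.

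The tract can be read from the sequence around the start sites. RefSeq (GRCm38.p6) promoters of 300 bases, from 250 before to 50 after the start, were at hand for 60 of the 80 genes, as 72 promoters. The start base was a C that began a run of at least 5 pyrimidines (C or T, on the strand of the gene) in 14 of the 72 promoters (19.4%), against 2.51% of all 32851 promoters. Pyrimidines before the start base were not counted here. When a C up to 5 bases from the start was allowed to open the run, the shares were 44.4% and 18.3%. The motif CCGGAAG on either strand, which is the core bound by ETS factors, was found in 33.3% of the 72 promoters and in 8.86% of all promoters, TATAAA in 11.1% and 13.6%, and the E-box CAGCTG in 4.17% and 16.3%. These matches describe the letters in the window and no binding was measured. The sequences below show 12 bases before and 18 bases from the start site, 5′ to 3′. The first 7 are examples, from the genes described below, of a start base that begins such a run. The run is in capitals, together with any pyrimidines directly before the start base. Rpl3l and Rpl5 are shown because their values did not overlap between young and aged mice, and neither has the run at the start. Rpl3l had 2 promoters, and the one not printed has no such run either. Rpl3 was not among the 60 genes with a promoter, so its start site could not be set beside that of Rpl3l.
Rps6 (chr4:86857350-86857379, minus strand): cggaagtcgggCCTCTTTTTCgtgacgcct
Rps10 (chr17:27635227-27635256, minus strand): ccgcgcacgCCCCTTCCTTTCCagcctccg
Rps27 (chr3:90213631-90213660, minus strand): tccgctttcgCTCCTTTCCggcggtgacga
Rpl28 (chr7:4792953-4792982, plus strand): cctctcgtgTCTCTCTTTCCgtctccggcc
Rpl32l (chr10:20208427-20208456, plus strand): taaaatgaccagCTTCTTCCTTggtgctgc
Rpl38 (chr11:114668568-114668597, plus strand): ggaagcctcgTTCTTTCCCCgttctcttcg
Rplp2 (chr7:141447639-141447668, plus strand): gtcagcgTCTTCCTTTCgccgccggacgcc
Rpl3l (chr17:24727814-24727843, plus strand): tgttctagctctgtcatttgacctctggtg
Rpl5 (chr5:107900516-107900545, plus strand): cacgtcgcttgcgtgctggtggtgctacat

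One slide, scanned once, carried the 6 arrays, with the 3 young mice and aged mouse 1 in its row 1 and aged mice 2 and 3 in its row 2. Per array, 48.7% to 53.8% of probes had a signal well above background, and 0 spots were saturated. Of 14 muscle fibre markers, 13 were tested, among them Ckm, the muscle creatine kinase (young 9.48, 9.56 and 9.83, aged 9.17, 9.59 and 9.53). Tnni2 was not tested, and was also left out when there was no filter on dim probes. Young mouse 3 and aged mouse 1 stood apart in the ribosomal protein genes. With each gene set against its own mean in young mice, the median of the 80 genes was -0.078, -0.12 and 0.21 in young mice and -0.22, 0.095 and 0.025 in aged mice. In young mouse 3, 74 of the 80 genes were above the young mean, and in aged mouse 1, 66 of 80 were below it. The 1248 other genes with a mean signal of at least 6 shifted the same way on these arrays, with medians of 0.12 in young mouse 3 and -0.30 in aged mouse 1. The median within-group SD of the ribosomal protein genes was 0.187 and became 0.0945 once the median of the family was taken out of each array. 

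**Figure D1:**
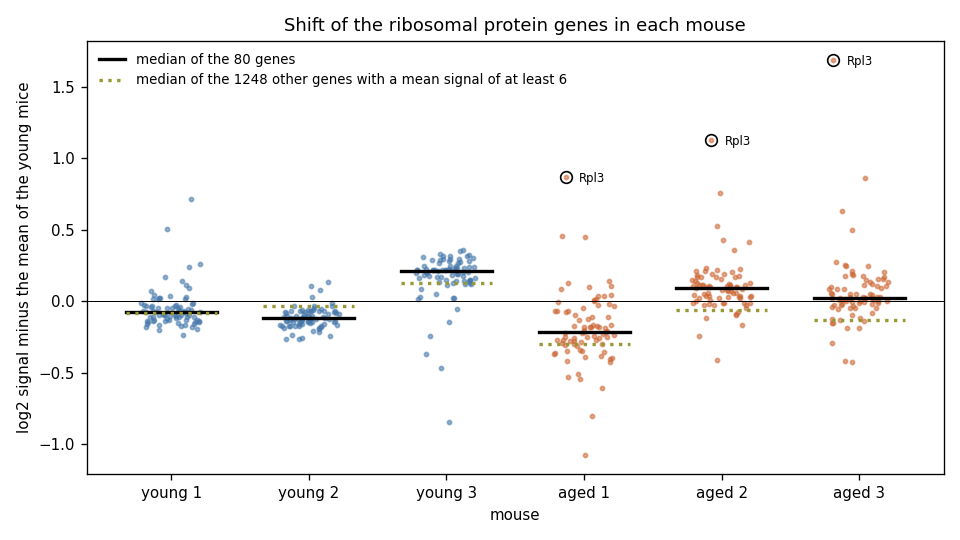
Difference of the log2 signal of each of the 80 ribosomal protein genes from its young mean (y axis) in each mouse (x axis), with 1 point per gene, a black line at their median and a dotted line at the median of the 1248 other genes with a mean signal of at least 6. The black line is highest in young mouse 3 (0.21) and lowest in aged mouse 1 (-0.22), and the circled Rpl3 is the highest point in each aged mouse.

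As a family, the ribosomal protein genes were at nearly the same level in aged and young muscle. Their median log2 fold change (aged minus young) was -0.029, with 31 genes above 0 and 49 below, a split that became 69 and 11 under quantile normalization and 8 and 72 when arrays were scaled to their median. The median of all genes tested was -0.081, and it moved to -0.20 when arrays were scaled to the median. The median of the family minus that of all genes was 0.051, but 0.16 with quantile normalization, -0.045 with no filter on dim probes and -0.13 when slide row was blocked. Of the 80 genes, 68 lay within 0.2 of 0 and 78 (97.5%) within 0.5, whereas 77.7% of all genes lay within 0.5. The bright genes outside the family were set beside the 72 ribosomal protein genes of the same brightness. The SE of the fold change in limma, which includes the variation between mice, was similar (median 0.178 against 0.181). The bright genes had a median fold change of -0.17 and an interquartile range of 0.259, against -0.039 and 0.122 for the 72 genes. In bulk RNA such as this, fewer cells of a type cannot be told apart from less RNA per cell. The median was -0.036 in the large and 0.0050 in the small subunit.

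None of the 80 genes passed an adjusted p of 0.05 in limma (0 of 80), where 0.249% of all genes did. At an unadjusted p under 0.05, 1 of 80 genes passed (1.25%, Rpl3, higher in aged mice), against 14.8% of all genes in either direction. All 3 aged mice lay above all 3 young mice in 2 of 80 genes (2.50%, Rpl3 and Rpl5), where the share over all genes was 7.35%. They lay below all 3 young mice in 2 of 80, among them Rpl3l, where the share was 15.0%. An absolute log2 fold change of at least 1 was reached by 1 of 80 genes (Rpl3) and by 5.88% of all genes. The per-mouse medians of the family ranged from -0.12 to 0.21 in young mice (SD 0.18, n = 3) and from -0.22 to 0.095 in aged mice, so that the groups overlapped.

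**Figure D2:**
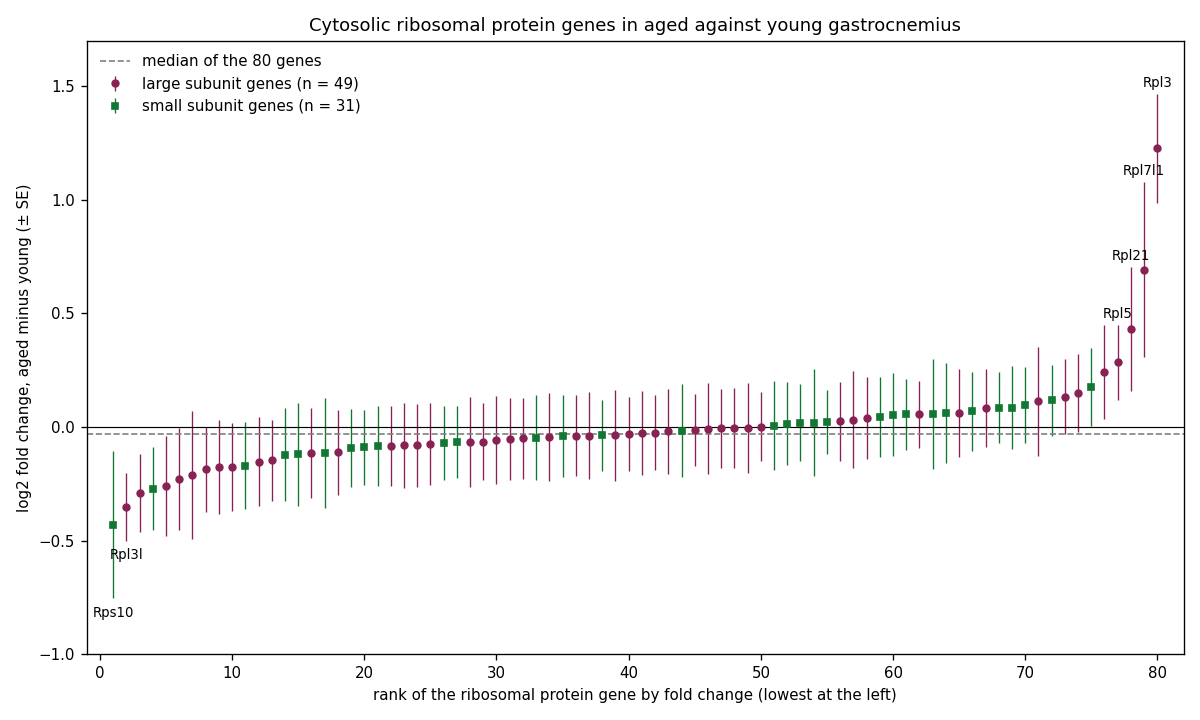
Log2 fold change between aged and young mice (y axis, error bars ± SE, n = 3 per group) of the 80 ribosomal protein genes in order of the fold change (x axis), with large subunit genes as circles and small subunit genes as squares. Rpl3 is at 1.23, and 78 of the 80 genes lie within 0.5 of 0.

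Rpl3, a large subunit protein that reaches toward the catalytic centre, was the gene that stood apart from the rest of the family. Its log2 signal (NM_013762, 1 probe) was 4.9, 4.72 and 5.01 in young mice and 5.75, 6.0 and 6.56 in aged mice. All 3 aged mice were above all 3 young mice, and the nearest values of the groups were 5.01 and 5.75. The means were 4.88 ± 0.15 and 6.1 ± 0.42 (SD, n = 3), which gave a log2 fold change of 1.23 (SE 0.24, 2.34-fold), with an unadjusted p of 0.00148 and an adjusted p of 0.128 in limma, which did not pass the threshold. It was the gene with the highest fold change of the family under each of the 18 alternative settings, between 0.87 and 1.47, with adjusted p between 0.0619 and 0.351. The row on the slide bears on this value: in row 1, which held the young mice and aged mouse 1, the difference was 0.87. When each array was centred on the median of the family, which was chosen after seeing the data, Rpl3 was at 1.30 (adjusted p 0.0867 in limma) and no other gene of the family was at an unadjusted p under 0.05.

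Rpl3l, the striated muscle paralog that replaces Rpl3 in the ribosome, had the second lowest fold change of the family. The log2 signal (NM_025425, 1 probe) was 7.03, 7.04 and 6.96 in young mice and 6.79, 6.6 and 6.59 in aged mice. The young mice were within 0.1 of each other and all 3 aged mice were below them. The log2 fold change was -0.35 (SE 0.15, 0.784-fold), with an adjusted p of 0.344 in limma, and ranged from -0.47 to -0.22 over the alternative settings. With each array centred on the median of the family, it was -0.28 (SE 0.21, adjusted p 0.640 in limma). Since a shift of the whole array cancels between genes of the same array, the difference Rpl3l minus Rpl3 was also taken within each mouse. It was 2.14, 2.33 and 1.94 in young mice and 1.04, 0.60 and 0.032 in aged mice, or 2.14 ± 0.19 and 0.56 ± 0.51 (SD, n = 3). The ratio of the paralogs was thus 0.335-fold that of young mice (change of the log2 ratio -1.58). An exact two-sided permutation test gave p = 0.1, the smallest that 3 mice against 3 allow, and an adjusted p of 0.375 over the 5 paralog pairs tested. Within row 1 the change was -1.09. Each gene rests on a single probe, and the signals of different probes do not give the amounts of the 2 mRNAs relative to each other.

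**Figure D3:**
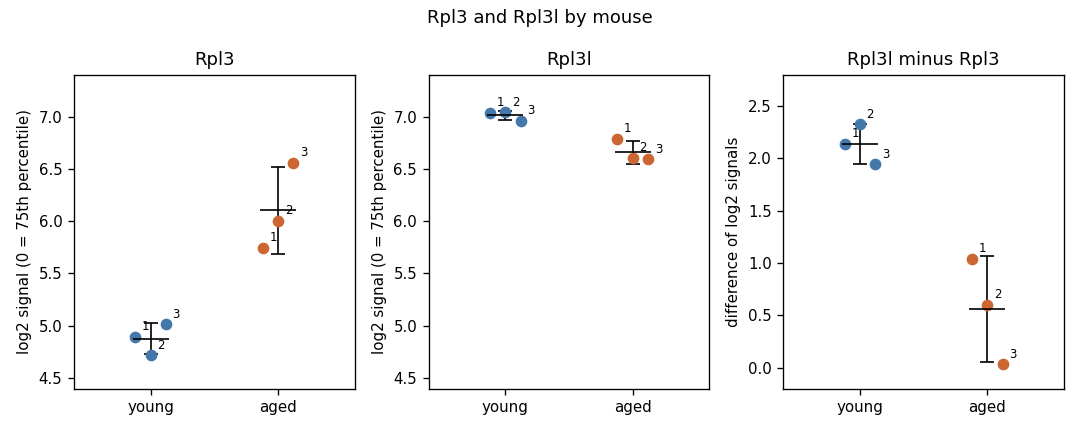
Log2 signal of Rpl3 and Rpl3l (y axes, 0 is the 75th percentile of the array) and their difference within each array, by age group (x axes), with 1 numbered point per mouse and bars at the mean ± SD (n = 3 per group). The difference lies between 1.94 and 2.33 in young mice and between 0.032 and 1.04 in aged mice, without overlap.

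The other paralog pairs had smaller differences between the ages, and their groups overlapped. Rpl7l1, a relative of Rpl7, was a dim gene (young -0.89, -1.47 and -2.45, aged -1.14, -0.84 and -0.74), and its log2 fold change of 0.69 (SE 0.39) was 0.27 without young mouse 3, the lowest value. Rpl7 was at -0.084, and the change of the difference Rpl7l1 minus Rpl7 was 0.78 (exact permutation p = 0.3). Rpl22l1, which can stand in for Rpl22, was at -0.23 and Rpl22 at -0.066, a change of the difference of -0.16 (exact permutation p = 0.2). Rps27l, a p53 target related to Rps27, was at -0.11 and Rps27 at 0.069, a change of -0.18 (exact permutation p = 0.3). Rpl36al, whose symbol lies outside the rule, and Rpl36a (0.061) had a change of the difference of -0.052 (exact permutation p = 0.9). The canonical partners of the paralogs that were not tested were at 0.082 (Rpl10), -0.0043 (Rpl39) and 0.097 (Rps4x) on the log2 fold change scale. Of the 5 pairs, Rpl3l and Rpl3 were thus the pair whose groups did not overlap.

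The remaining genes at the ends of the order had modest fold changes. Rpl5, which carries the 5S ribosomal RNA and with Rpl11 binds Mdm2 when ribosome assembly fails, was 5.17, 5.06 and 5.15 in young mice and 5.27, 5.34 and 5.63 in aged mice. All aged mice were above all young mice, with a log2 fold change of 0.28 (SE 0.16, adjusted p 0.461 in limma). Its partner Rpl11 was at -0.026, which turned to 0.13 with normexp background correction and 0.15 with quantile normalization.

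Rps10, a small subunit protein ubiquitylated on stalled ribosomes, had the lowest fold change of the family at -0.43 (SE 0.32). Its values were 8.12, 8.05 and 8.62 in young mice and 7.19, 8.34 and 7.97 in aged mice, with aged mouse 1 the lowest and aged mouse 3 also below all young mice. The fold change was -0.11 without aged mouse 1, 0.066 without young mouse 3 and aged mouse 1 together, and -1.07 within row 1. Rpl21 was at 0.43 (young 6.31, 5.77 and 5.34, aged 6.25, 6.01 and 6.44) and Rpl28 at 0.24 (young 6.67, 6.52 and 6.04, aged 6.54, 6.77 and 6.65), both large subunit proteins. In both, young mouse 3 was the lowest of the 6 mice although 74 of the 80 genes were above the young mean on that array. Rpl32l was at -0.29 (young 6.98, 6.93 and 7.21, aged 6.69, 6.94 and 6.62) and Rpl36 at -0.26 (young 8.22, 8.33 and 8.64, aged 7.79, 8.39 and 8.24). The groups overlapped in all 5 of these genes.

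The acidic stalk of the large subunit, on which the elongation factors land, is built of Rplp0, Rplp1 and Rplp2. Rplp0 was 8.56, 8.66 and 8.94 in young mice and 8.32, 8.78 and 8.72 in aged mice, with a log2 fold change of -0.12. Rplp1 was 8.19, 8.18 and 8.68 in young mice and 7.96, 8.33 and 8.22 in aged mice (-0.18). Rplp2 was 8.84, 9.0 and 9.24 in young mice and 8.71, 9.0 and 8.93 in aged mice (-0.15). The groups overlapped in all 3 genes, with the highest value in young mouse 3 and the lowest in aged mouse 1 each time. Without these 2 mice the fold changes were 0.13, 0.095 and 0.044.

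Apart from Rpl5, the members picked for known roles beyond peptide synthesis or in its control were near 0 on their brightest probe. Rps6, the substrate of S6 kinase downstream of mTORC1, was 7.12, 7.07 and 7.28 in young mice and 7.09, 7.22 and 7.33 in aged mice. Its log2 fold change was 0.055 (SE 0.16), and -0.068 with median scaling. Rps27a, which is made as a fusion with ubiquitin, was at 0.060 (SE 0.22), and -0.062 with median scaling. Rps19, the gene most often mutated in Diamond-Blackfan anaemia, was at 0.086 (SE 0.18), and -0.037 with median scaling. Rpl38, needed for the translation of Hox mRNAs in the embryo, was at -0.019 (SE 0.19), and 0.16 with quantile normalization. Rpl13a, which leaves the ribosome to silence inflammatory mRNAs, was at -0.056 (SE 0.19), and 0.069 with quantile normalization. Rps3, at the mRNA entry channel and also a DNA repair factor, was at 0.057 (SE 0.24), and -0.065 with median scaling. The genes with the brightest probes, Rpl10, Rps14 and Rplp2, were at 0.082, -0.12 and -0.15. None of these values exceeded its SE. Dimmer probes were at 0.25 and 0.20 for Rps6, 0.28 and 0.33 for Rpl13a, and -0.13 and -0.32 for Rps27a. Those of Rpl38 and Rps3 were at -0.041 and -0.097. On the Rpl13a probe at 0.33, all aged mice were above all young mice. The genes of the family outside the rule for named genes ranged from -0.21 (SE 0.28) for Rpl14 to 0.18 (SE 0.17) for Rps3a1, both named here after their values were seen, and in each of them the groups overlapped.

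Most genes of the family had more than 1 probe, and the probes give a second reading of the same mRNA. Of the 80 genes, 30 had 1 probe and 50 had more, and in 28 of the 50 the probes lay on both sides of 0. The median range of the log2 fold change among probes of a gene was 0.151, and the widest was 1.68, in Rpl7a, a large subunit protein, with probes from -0.78 to 0.90. Among the 163 probes of the family, 74 were above 0 and 89 below, with 0 past the adjusted threshold in limma and 3 at an unadjusted p under 0.05. The share over all probes was not counted, and over all genes tested it was 14.8%. Besides the probe of Rpl3, the 3 probes included a probe of Rplp0, which was named after its values were seen. The Rplp0 probe was 6.35, 6.62 and 6.92 in young mice and 5.98, 5.16 and 4.76 in aged mice (log2 fold change -1.33, SE 0.33, adjusted p 0.193 in limma), while the other Rplp0 probes were at -0.12 and 0.0017. The probe that differed was the dimmest of the 3. For Rpl3 and Rpl3l no second probe was on the array. Probe sequences are not in the files used here, so matches to the many processed pseudogenes of the family were not checked.

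**Figure D4:**
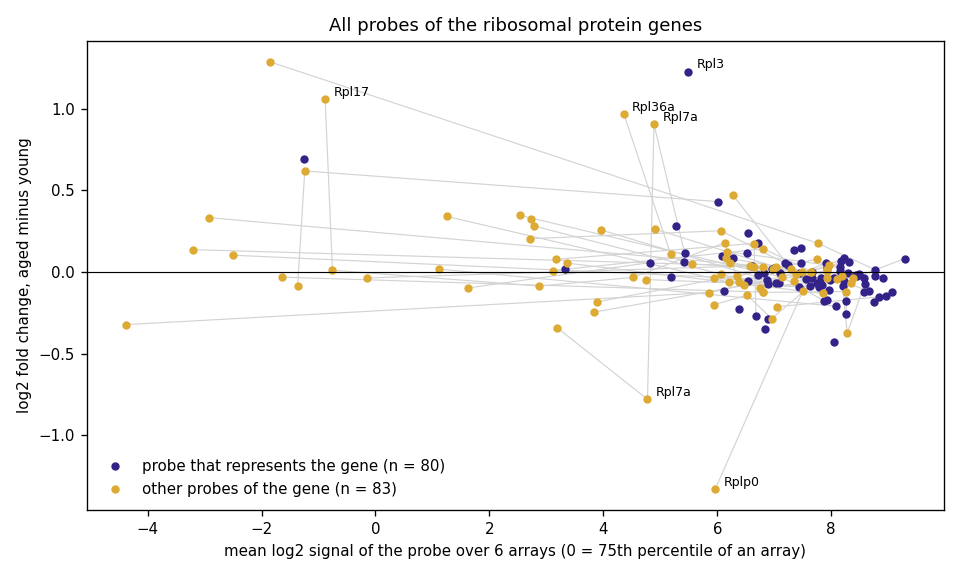
Log2 fold change between aged and young mice (y axis) against the mean log2 signal over the 6 arrays (x axis, 0 is the 75th percentile of an array) for the 163 probes of the 80 genes, with dark points for the probe that represents a gene, light points for its other probes and grey lines joining the probes of a gene. Bright probes lie close to 0, and the probes far from it are that of Rpl3 and others that include single probes of Rplp0, Rpl17, Rpl36a and Rpl7a.

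The ribosomal proteins whose names fall outside the rule behaved like the family. Rpsa was at -0.076, Fau at -0.011, Rack1 at 0.020 and Rpl36al at 0.0094 on the log2 fold change scale, and the median of the 5 genes tested was -0.011. These genes shared the shift of the arrays, with the highest median in young mouse 3 (0.17) and the lowest in aged mouse 1 (-0.23). None of the 5 passed the adjusted threshold in limma or an unadjusted p under 0.05.

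The mitochondrial ribosome, a separate machine that translates the mRNAs of the mitochondrial genome, had fold changes mostly below 0. Its 77 genes had a median of -0.17, with 23 above 0 and 54 below. The median was below 0 under every alternative setting (-0.29 to -0.067). Over all genes tested, 8617 were above 0 and 12283 below. The 1248 bright genes outside the cytosolic family also had a median of -0.17, with 238 above 0 and 1010 below. The mitochondrial median minus that of all genes was -0.089, and -0.020 with quantile normalization. None of the 77 passed the adjusted threshold. At an unadjusted p under 0.05 there were 0 higher and 9 of 77 lower, where the shares over all genes were 5.70% and 9.11%. Mrps28 had the lowest fold change (-0.67, SE 0.15, adjusted p 0.157 in limma; young 6.25, 6.14 and 6.41, aged 5.54, 5.65 and 5.61) without overlap of the groups, and Mrpl19 the highest (0.54, SE 0.24). The difference between the 2 families was not tested.

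The ribosome biogenesis genes, which make ribosomal RNA and assemble the subunits in the nucleolus, lay mostly above 0. Of 69 genes, 57 were above 0 and 12 below, with a median of 0.22 that ranged from 0.094 to 0.31 over the alternative settings. None passed the adjusted threshold in limma, and at an unadjusted p under 0.05 there were 7 of 69 higher and 1 lower, where the shares over all genes were 5.70% and 9.11%. Myc, the transcription factor that drives ribosome production, had the highest fold change of the list (1.6, SE 0.43, adjusted p 0.196 in limma). It was -1.28, -1.34 and -1.57 in young mice and -0.39, -0.26 and 1.26 in aged mice, with all aged mice above the young and aged mouse 3 far above the others. Tcof1, which supports transcription of ribosomal RNA, was the lowest at -0.55 (SE 0.18; young 3.3, 3.53 and 3.6, aged 2.71, 3.11 and 2.96), again without overlap.

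The factors that work on the ribosome showed no common direction. Of 36 initiation factors, 18 were above and 18 below 0 (median 0.0077, and -0.11 with median scaling), and 1 was at an unadjusted p under 0.05, the eIF3 subunit Eif3d (0.34, SE 0.14), which was named after its value was seen. Eif2b3, a subunit of the exchange factor eIF2B, was the highest (1.2, SE 0.58) and Eif3j1 the lowest (-1.0, SE 0.63), the latter from aged mouse 2 alone (2.27, against 4.83 and 4.43 in the other aged mice). Of the 30 genes of the mTORC1 pathway, 10 were above and 20 below 0 (median -0.037, and 0.0075 with quantile normalization, 0.015 with the percentile of detected probes and 0.037 with centring on the ribosomal protein genes). They ranged from -1.74 for the dim arginine sensor Castor1 (SE 0.64) to 0.51 for the inhibitor Tsc2 (SE 0.25), with 0 of 30 higher and 2 lower at an unadjusted p under 0.05, where the shares over all genes were 5.70% and 9.11%. Neither list had a gene past the adjusted threshold, but 2 genes of the mTORC1 list passed it without young mouse 3 and aged mouse 1 together.

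Among 13 elongation and release factors (median 0.039, and -0.084 with median scaling), the 2 forms of eEF1A, which brings aminoacyl-tRNA to the ribosome, had fold changes of opposite sign. Eef1a1, the form of most tissues that gives way to Eef1a2 in maturing muscle, was 4.57, 4.43 and 4.3 in young mice and 5.17, 4.8 and 5.13 in aged mice, all aged mice above the young (log2 fold change 0.60, SE 0.18, adjusted p 0.223 in limma). Eef1a2, the form of muscle and neurons, was 5.96, 5.95 and 6.11 in young mice and 5.76, 5.6 and 5.52 in aged mice, all aged mice below the young (log2 fold change -0.37, SE 0.16, adjusted p 0.334 in limma). Like Rpl3 and Rpl3l, neither passed the threshold, and this pair was not among those fixed for a test. Eef1g, with a fold change of 0.69 (SE 0.47), was the highest of the list, with young mouse 3 at 3.88 and the other mice between 5.37 and 5.86.

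**Figure D5:**
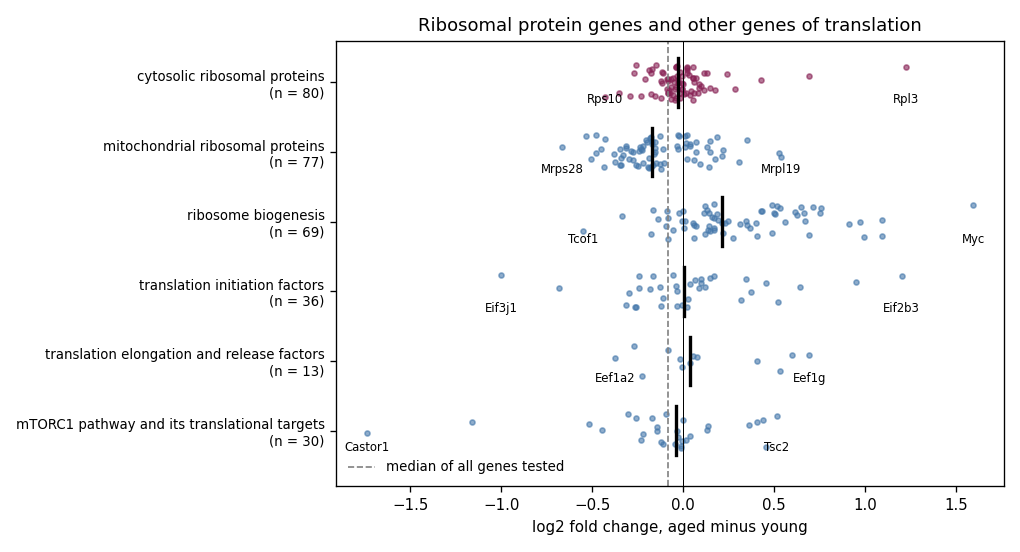
Log2 fold change between aged and young mice (x axis) of the genes of 6 lists (y axis), 1 point per gene, with a black bar at the median of each list, a dashed line at the median of all genes tested (-0.081) and the lowest and highest gene of each list named. The 80 cytosolic ribosomal protein genes cluster about their median of -0.029 with Rpl3 to the right, and the medians are -0.17 for the mitochondrial ribosomal proteins and 0.22 for ribosome biogenesis, while the medians near 0 changed sign with the scaling.

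Muscle holds other cells besides fibres, and their markers were followed on the same arrays. For each list the linear signals were summed, so that the brightest genes weighed most, and the log2 of the sum was taken. The log2 sum of the muscle fibre markers (13 of 14 tested) was 12.68 to 12.95 in young and 12.45 to 12.75 in aged mice. That of the satellite cell and proliferation markers (7 of 12 tested; Myf5, Top2a, Ccnb1, Cdk1 and Tyms were well above background on too few arrays) was 4.11 to 4.20 in young and 4.37 to 4.79 in aged mice, with 0 of 7 genes at an unadjusted p under 0.05. The median fold change of this list was 0.18, and -0.063 without aged mouse 3 and -0.054 with the row as a block. The neutrophil markers (7 of 11) were 7.08 to 7.12 and 7.16 to 7.39. S100a8 and S100a9 were past the adjusted threshold, and 0 of the list without aged mouse 3 or with a replicate block. Of the 7 markers, 5 were higher in aged mice and 2 lower, with Camp the lowest at -0.42. Their median fold change was 1.56, and 0.033 over the 5 that were well above background on all 6 arrays. The macrophage markers (10 of 11) were 5.24 to 5.49 and 5.43 to 5.49. Although these sums overlapped, 8 of the 10 markers were higher in aged mice and 2 lower. Their median fold change was 0.49, and 0.35 to 0.59 over the alternative settings. At an unadjusted p under 0.05 in limma, 4 of 10 were higher and 0 lower, where the shares over all genes were 5.70% and 9.11%. None of the 10 passed the adjusted threshold. The lymphocyte markers (6 of 10) were 2.30 to 2.49 and 1.93 to 2.30, the fibroblast markers (9 of 9) 8.62 to 8.81 and 7.53 to 8.22, and the erythrocyte markers (9 of 11) 9.11 to 9.65 and 7.95 to 8.63. Of the 9 fibroblast markers, 8 were lower in aged mice and 1 higher (Dpt, 0.80), with a median fold change of -0.74. That median was -0.20 without aged mouse 1, and -0.18 without young mouse 3 and aged mouse 1 together. The sums did not overlap between the groups for the satellite cell, neutrophil, fibroblast and erythrocyte markers. Their part in the values of Rpl3, Rpl3l and the other genes was not tested.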

How the data were processed

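Mice of 1 group were taken as separate animals from the sample titles. For each array the authors deposited the table written by Agilent Feature Extraction (version 11.0.1.1 per the file headers, 9.5 per the submitters' processing notes). Its processed signal is an intensity on a linear scale, background-subtracted and detrended for that array alone, and the deposited series matrix repeats it. The methods name no normalization or test for the arrays. Flagged spots (161 to 212 per array) were dropped, spots of a probe were averaged as log2 signals, and each array was set to 0 at its 75th percentile. Accessions without their version were looked up among RefSeq transcripts (GRCm38.p6), which named 28331 of 55681 probes. The other 27350 went under their accession, so the genes tested and the shares over all genes include accessions without a symbol. The files give an earlier build, so no coordinates of probes are printed. Probes well above background on at least 3 of 6 arrays were kept, and the brightest of them on average stood for the gene. The number of arrays limits the precision.

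The age groups were fitted in limma 3.58.1 (R 4.3.3) by lmFit and eBayes with an intercept and age. P-values were adjusted by Benjamini-Hochberg over 20900 genes, at a threshold of 0.05, and the code was first tested on simulated data. Probes were fitted in the same way over 28002 probes. Paralog pairs were compared with exact two-sided permutation tests over the 6 mice, adjusted over 5 pairs. The genes named were those past the threshold, the 5 with the largest and the 5 with the smallest fold change, the paralog pairs, the stalk genes, 8 genes with known other roles and the 3 brightest, and in the other lists the highest and lowest gene, those past the threshold, Eef1a1 and Eef1a2. Some genes that this rule names are not reported here. The members, the lists and these rules were chosen with earlier results of these data known. The alternatives were normexp background correction (offset 50), quantile normalization, median scaling, a 75th percentile taken over detected probes, no filter or a stricter filter on dim probes, the mean of all probes, a variance trend in eBayes, blocks for slide row and for replicate number, and leaving out each mouse. A further 2, centring each array on the ribosomal protein genes and leaving out young mouse 3 and aged mouse 1 together, were chosen after seeing the data.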

Additional observations from a re-analysis of the deposited data

How the results depend on the processing

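None of the ribosomal protein genes passed the adjusted threshold under any of the 18 alternatives. The replicate numbers did not pair the mice (correlations of same-numbered mice -0.062, -0.27 and 0.028). When the replicate number was entered as a block, 5 genes in all passed the threshold instead of 52, while the median of the family (-0.029) and the change of Rpl3l relative to Rpl3 (-1.58) were the same. Over all genes, leaving out a mouse gave 1 to 194 genes past the threshold (194 without aged mouse 1, 1 without aged mouse 3, and 8 to 10 without each of the others), no filter on dim probes gave 8, the stricter filter 32, and leaving out young mouse 3 and aged mouse 1 together 174. The count of ribosomal protein genes at an unadjusted p under 0.05 was 1, and became 3 with normexp (among them Rpl3 and Rpl32l), with the mean of all probes (among them Rpl3 and Rplp0) and with the row as a block (Rpl3, Rpl14 and Rps10), and 2 with quantile normalization (Rpl3 and Rpl5) and, each time Rpl3 and Rpl3l, with median scaling, the stricter filter, the mean-variance trend and without young mouse 3 and aged mouse 1 together. It was 1 to 3 when each mouse was left out. Over all genes, the alternatives gave shares at an unadjusted p under 0.05 of 3.31% to 9.66% higher and 4.83% to 12.4% lower. The median fold change of the family was -0.22 with the row as a block, 0.16 without young mouse 3 and aged mouse 1 together, and -0.093 to 0.063 when each mouse was left out. The change of Rpl3l relative to Rpl3 was -1.82 to -1.31 when each mouse was left out. Of the 30 genes that the rule names, 8 had the same sign under every alternative, among them Rpl3, Rpl3l, Rpl5, Rpl7l1, Rpl21, Rpl28 and Rpl32l, and 22 changed sign at least once. The causes were not tested. The reversed log2 fold changes, none of which passed the threshold, were as follows. With normexp, they were -0.045 for Rpl10, 0.13 for Rpl11 and -0.018 for Rps27a. With quantile normalization, they were 0.15 for Rpl11, 0.069 for Rpl13a, 0.070 for Rpl22, 0.16 for Rpl38, 0.11 for Rpl39, 0.060 for Rpl7, 0.054 for Rplp0, 0.038 for Rplp2, 0.073 for Rps14 and 0.0045 for Rps27l. With median scaling, they were -0.040 for Rpl10, -0.062 for Rpl36a, -0.037 for Rps19, -0.054 for Rps27, -0.062 for Rps27a, -0.065 for Rps3, -0.026 for Rps4x and -0.068 for Rps6. With the percentile of detected probes, they were 0.027 for Rpl11, 0.034 for Rpl38 and 0.049 for Rpl39. With the mean of all probes, they were -0.0090 for Rpl10, 0.017 for Rpl11, 0.18 for Rpl13a, 0.096 for Rpl22, -0.13 for Rps27a and -0.020 for Rps3. With the row as a block, they were -0.11 for Rpl10, -0.022 for Rpl36a, -0.028 for Rps19, -0.067 for Rps27, -0.27 for Rps27a, -0.34 for Rps3 and -0.069 for Rps6. With centring on the ribosomal protein genes, they were 0.049 for Rpl11, 0.019 for Rpl13a, 0.0089 for Rpl22, 0.056 for Rpl38 and 0.071 for Rpl39. Leaving out each mouse in turn, or young mouse 3 and aged mouse 1 together, gave -0.077 to 0.13 for Rpl11, -0.17 to 0.17 for Rpl13a, -0.16 to 0.18 for Rpl22, -0.37 to 0.077 for Rpl22l1, -0.38 to 0.038 for Rpl36, -0.024 to 0.26 for Rpl36a, -0.090 to 0.20 for Rpl38, -0.086 to 0.16 for Rpl39, -0.15 to 0.11 for Rpl7, -0.20 to 0.13 for Rplp0, -0.26 to 0.095 for Rplp1, -0.24 to 0.044 for Rplp2, -0.68 to 0.066 for Rps10, -0.20 to 0.15 for Rps14, -0.018 to 0.25 for Rps27, -0.032 to 0.37 for Rps27a, -0.27 to 0.23 for Rps27l, -0.13 to 0.34 for Rps3, -0.00085 to 0.21 for Rps4x and -0.0055 to 0.18 for Rps6.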
